A study of Homo sapiens with 6 samples.

Results

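Described here are the genes of the proteasome: its core particle, its regulatory cap, its activators and inhibitor, and the chaperones that assemble it. Members were rows of the deposited table whose gene name was PSM followed by a letter from A to G and a number, or was POMP, ADRM1 or SHFM1, and 43 of the 22152 rows qualified. The table came from HaCaT cells, a human keratinocyte line that became immortal spontaneously. Cells received 1 nM of a synthetic mimic of miR-21-3p (3 libraries) or 1 nM of a negative control mimic (NC mimic, 3 libraries), and RNA was taken 48 h later. The labels name polyadenylated RNA and a stranded mRNA kit, which is followed here, while the study's methods speak of small RNA libraries. The labels call the libraries biological replicates of this 1 line, so p-values describe the spread between these 6 cultures. These libraries give no level of the mimic itself, since mature miRNAs carry no poly(A) tail.

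The proteasome degrades proteins tagged with ubiquitin. Its core is a stack of rings: outer alpha rings (PSMA genes) gate the entry, and inner beta rings (PSMB genes) hold the protease sites. The cap has a base, whose ATPases (PSMC genes) unfold substrates and thread them into the core, and a lid (most PSMD genes) that removes ubiquitin; core plus cap form the 26S proteasome. In cells exposed to interferon, and at a resting level in many epithelial cells, PSMB8, PSMB9 and PSMB10 replace PSMB5, PSMB6 and PSMB7 to form immunoproteasomes, which supply peptides for antigen presentation. In the epidermis, loss of normal expression of the chaperone gene POMP is known to cause a keratinising skin disorder.

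Values are reads per gene divided by 1 size factor per library, written to 3 digits, and are called normalised reads. With the size factors undone, the libraries held about 24400000, 24500000 and 26200000 reads (NC mimic replicates 1 to 3) and 24800000, 25000000 and 28000000 reads (miR-21-3p mimic replicates 1 to 3). The lowest member, PSMC1, averaged 165 ± 12.5 normalised reads (SD, n = 3) in NC mimic cells, so all 43 members passed the filter of a mean of at least 10. All 6 keratinocyte markers fixed for the label check were present, and their summed values were 270990, 260080 and 271380 in the NC mimic libraries against 272960, 282820 and 261160 in the miR-21-3p mimic libraries. KRT5, the basal keratin, was the most abundant of them at 123000 to 139000. Without overlap, SFN was higher in miR-21-3p mimic libraries (18900, 19600 and 18300 against 20600, 21000 and 21400), as was DSP. TP63 was lower without overlap (7490, 7180 and 7680 against 6860, 7120 and 6460). None of these was called (limma adjusted p = 0.054 for SFN, 0.37 for DSP and 0.1 for TP63). Of 6 fibroblast markers 1 was in the table, COL1A1, at 560, 390 and 478 in NC mimic and 372, 378 and 364 in miR-21-3p mimic libraries (not called, limma adjusted p = 0.063). Of 5 melanocyte markers 1 was in the table, PMEL, at 120 to 155, and the 3 leukocyte markers were not analysed here. Mitochondrial genes (24 rows) took 9.01%, 8.91% and 9.42% of the NC mimic values and 8.4%, 8.61% and 8.33% of the miR-21-3p mimic values. The part of SFN, DSP, TP63, COL1A1 and the mitochondrial share in the results below was not tested.

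Of 29 transcripts of the constitutive 26S proteasome, 14 were modestly but significantly more abundant in cells given the miR-21-3p mimic. No immune subunit, activator, inhibitor or chaperone passed as higher, which for 14 members is close to the share of all genes called higher (6.15%). Of the 43 members, 14 were called higher and 1 lower (limma, adjusted p under 0.05 over 14782 genes). That is 32.6% of members called higher against 6.15% of all genes tested, and 2.33% called lower against 4.67%. In 21 members (48.8%) all 3 miR-21-3p mimic libraries lay above all 3 NC mimic libraries, as in 16.5% of genes tested, and in 2 members all lay below, as in 14.8%. The fold changes were small: the median log2 fold change was 0.17 over members against 0.00 over genes tested. Of the 43 members, 39 were above 0, as were 51.1% of genes tested. In bulk RNA a change in the mix of cells and a change in RNA per cell cannot be told apart.

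All 14 members called higher were among the 29 constitutive subunits of the core, base and lid, whose median log2 fold change was 0.20 and of which 29 of 29 lay above 0. The 14 members outside that set gave a median of 0.08 and 1 call lower, PSMB10 (limma). None of them was called higher, against 6.15% of all genes tested, so the absence of a call is close to that share. At an unadjusted p under 0.05, 5 of the 14 were higher, as were 15.3% of all genes tested. The summed value of the 29 subunits was 55412, 61660 and 56507 in NC mimic replicates 1 to 3 and 66217, 63343 and 69799 in miR-21-3p mimic replicates 1 to 3, a ratio of means of 1.149. The summed value of the other 14 was 25341, 26654 and 25444 against 26291, 26317 and 26897, a ratio of 1.027. NC mimic replicate 2 was the highest NC mimic library for both sums, and miR-21-3p mimic replicate 2 the lowest of its group for the first.

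**Figure D1:**
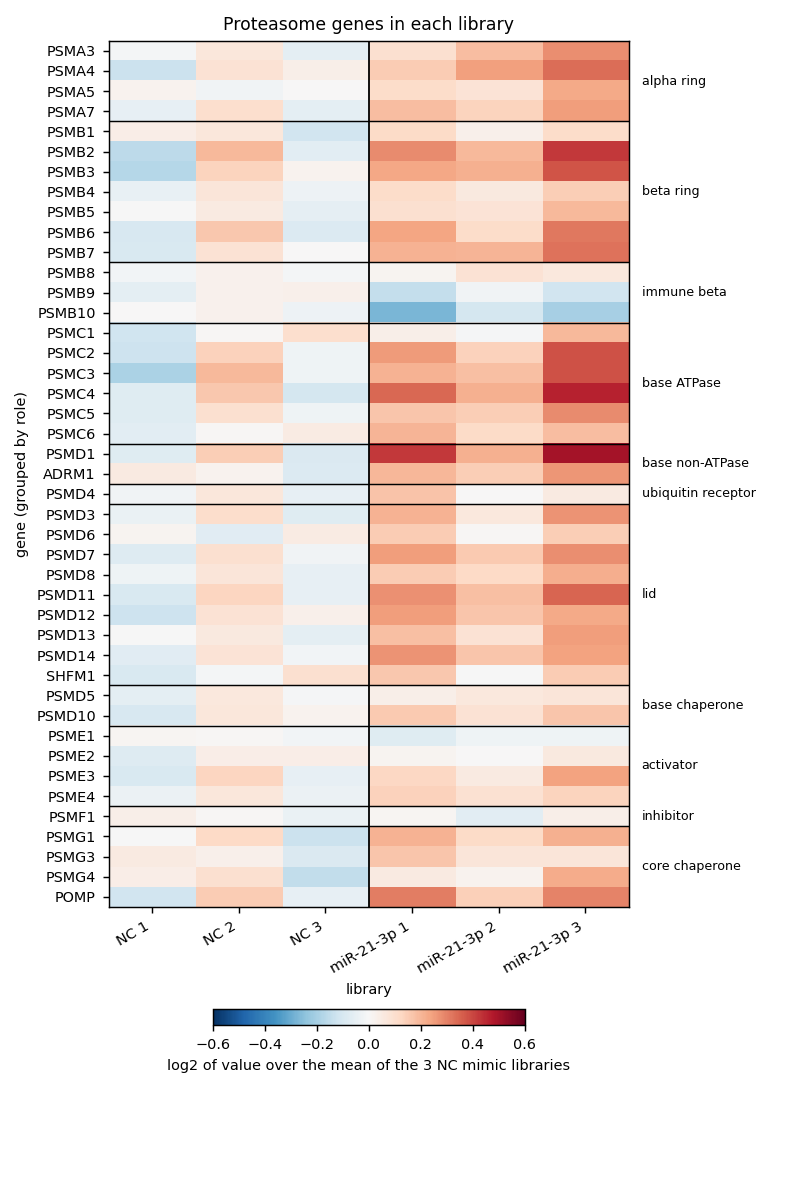
Each cell shows the log2 ratio of a gene's normalised reads in 1 library to the mean of the 3 NC mimic libraries, for 43 proteasome genes grouped by role (rows) in 6 libraries (columns); red is higher and blue lower. The miR-21-3p mimic columns are mostly red through the alpha ring, beta ring, base and lid rows, while PSMB10 is blue, and the NC 2 column is redder than the other NC mimic columns.

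The number of calls depended on which libraries were included. Over the 29 constitutive subunits, the median deviation from the NC mimic mean on the log2 scale was -0.07, 0.09 and -0.03 in NC mimic replicates 1 to 3 and 0.20, 0.14 and 0.27 in miR-21-3p mimic replicates 1 to 3. Leaving out NC mimic replicate 2 gave 25 members called higher, 20 of the 29 constitutive subunits and 5 of the other 14, and leaving out miR-21-3p mimic replicate 2 gave 16 (58.1% and 37.2% of the members). In those settings 1628 and 899 genes were called higher over the whole table (11% and 6.08% of genes tested, limma). Leaving out NC mimic replicate 1 gave 1, and leaving out NC mimic replicate 3, miR-21-3p mimic replicate 1 or miR-21-3p mimic replicate 3 gave 0 (limma). In these 4 settings 26, 21, 23 and 20 members were higher at an unadjusted p under 0.05 (60.5%, 48.8%, 53.5% and 46.5%, against 12.2%, 11.1%, 11.5% and 11.1% of all genes tested). With all libraries 29 were (67.4% against 15.3%). Genes called higher over the whole table also dropped, to 315, 98, 147 and 203 from 909. With each library left out in turn, 29 of 29 constitutive subunits stayed above 0, and the median log2 fold change of the members ran from 0.14 to 0.20.

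The alpha ring, whose subunits close the entrance to the core, had 4 members in the table. PSMA1, PSMA2, PSMA6 and the testis subunit PSMA8 were not analysed here. PSMA4 was at 3370, 3910 and 3770 normalised reads in NC mimic replicates 1 to 3 and at 4090, 4370 and 4650 in miR-21-3p mimic replicates 1 to 3. The groups did not overlap, and the log2 fold change was 0.25 (95% CI 0.11 to 0.38, limma adjusted p = 0.027). PSMA7 was at 4630, 5140 and 4610 against 5450, 5250 and 5700, again without overlap (log2 fold change 0.19, 95% CI 0.08 to 0.31, limma adjusted p = 0.039). PSMA3 and PSMA5 were also higher in all 3 miR-21-3p mimic libraries than in any NC mimic library, at log2 fold changes of 0.19 and 0.14, and did not pass the test (limma adjusted p = 0.11 and 0.1).

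Of the 7 constitutive subunits of the beta ring, which lines the chamber where proteins are cut, 3 were called higher. Over all genes tested 6.15% were (limma). PSMB11, a subunit of the thymus, was not analysed here. PSMB2, a structural subunit without a protease site, was at 1230, 1570 and 1310 in NC mimic and 1670, 1570 and 1840 in miR-21-3p mimic libraries. NC mimic replicate 2 equalled miR-21-3p mimic replicate 2, so the groups touched, with a log2 fold change of 0.31 (95% CI 0.13 to 0.49, limma adjusted p = 0.037). PSMB3, another structural subunit, was at 998, 1230 and 1140 against 1320, 1300 and 1460 (log2 fold change 0.28, 95% CI 0.12 to 0.44, limma adjusted p = 0.036). Its groups did not overlap.

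Among the catalytic subunits, PSMB7, which carries the trypsin-like site, was called higher. It was at 2430, 2750 and 2590 in NC mimic and 2990, 2980 and 3250 in miR-21-3p mimic libraries, with a log2 fold change of 0.25 (95% CI 0.13 to 0.37, limma adjusted p = 0.018). All miR-21-3p mimic libraries lay above all NC mimic libraries. PSMB5, with the chymotrypsin-like site, was at 3110, 3240 and 3010 against 3330, 3300 and 3570 and did not pass (log2 fold change 0.12, limma adjusted p = 0.12), although its groups did not overlap. PSMB6, with the caspase-like site, was at 2750, 3290 and 2770 against 3460, 3170 and 3660 (log2 fold change 0.23, limma adjusted p = 0.061). Here NC mimic replicate 2 exceeded miR-21-3p mimic replicate 2. The remaining beta subunits, PSMB1 and PSMB4, had log2 fold changes of 0.09 and 0.11 with overlapping groups.

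In the base, 3 of 6 ATPases were called higher, beside 6.15% of all genes tested (limma). PSMC4 was at 878, 1030 and 858 in NC mimic and 1170, 1070 and 1270 in miR-21-3p mimic libraries, without overlap, and had the largest log2 fold change of the ATPases (0.34, 95% CI 0.17 to 0.52, limma adjusted p = 0.02). PSMC2 was at 1550, 1860 and 1660 against 2020, 1860 and 2200, with NC mimic replicate 2 level with miR-21-3p mimic replicate 2 (log2 fold change 0.26, limma adjusted p = 0.04). PSMC5 was at 2200, 2470 and 2270 against 2600, 2560 and 2820 and did not overlap (log2 fold change 0.20, limma adjusted p = 0.039). PSMC3 had a log2 fold change of 0.27 (95% CI 0.08 to 0.45) and PSMC6 of 0.17, neither called. PSMC1 is uncertain, because a row named as its pseudogene copy, PSMC1P1, was listed at 1700, 1870 and 1800 against 2080, 2010 and 2110 while PSMC1 was at 152, 166 and 177 against 169, 164 and 189. The copy was itself called higher, without overlap (log2 fold change 0.21, limma adjusted p = 0.025), a call lost in 4 of the 6 fits that left out a library. Reads of the gene and its copy cannot be told apart from the table, and their sum averaged 1960 ± 94 and 2240 ± 62.9 (SD, n = 3), a ratio of 1.146.

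The base subunits without ATPase activity gave the largest fold change of the 43 members. PSMD1, the scaffold of the base that docks ubiquitin receptors, was at 1090, 1270 and 1080 in NC mimic and 1540, 1330 and 1620 in miR-21-3p mimic libraries. Even the lowest miR-21-3p mimic library, replicate 2, lay above the highest NC mimic library, and the log2 fold change was 0.38 (95% CI 0.21 to 0.56, 30.4% higher, limma adjusted p = 0.015). ADRM1, a ubiquitin receptor that binds PSMD1, was at 2190, 2140 and 1990 against 2420, 2330 and 2530 (log2 fold change 0.20, 95% CI 0.09 to 0.32, limma adjusted p = 0.03), without overlap. PSMD4, another intrinsic ubiquitin receptor, was at 1680, 1790 and 1650 against 1920, 1710 and 1770, with overlapping groups and a log2 fold change of 0.08 (95% CI -0.05 to 0.20). PSMD2, the partner of PSMD1 in the base, was not analysed here.

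In the lid, 4 of 9 subunits were called higher, beside 6.15% of all genes tested (limma). All 9 had a log2 fold change above 0 (0.10 to 0.27), as had 51.1% of all genes tested. PSMD14, the enzyme that cuts ubiquitin chains off substrates, was at 910, 1010 and 944 in NC mimic and 1150, 1070 and 1130 in miR-21-3p mimic libraries (log2 fold change 0.23, limma adjusted p = 0.031). Its structural partner PSMD7 was at 3360, 3790 and 3490 against 4220, 3950 and 4310 (log2 fold change 0.23, limma adjusted p = 0.021). In both genes every miR-21-3p mimic library exceeded every NC mimic library. The scaffold subunit PSMD11 was at 2080, 2420 and 2140 against 2680, 2510 and 2820 (log2 fold change 0.27, limma adjusted p = 0.021), and its neighbour PSMD12 at 1340, 1550 and 1490 against 1740, 1640 and 1710 (log2 fold change 0.22, limma adjusted p = 0.037), also without overlap. The other 5, PSMD3, PSMD6, PSMD8, PSMD13 and SHFM1 (now named SEM1), were not called, with log2 fold changes of 0.10 to 0.18. Rows for the copies PSMD7P1 and PSMD12P were listed at 111 to 152 and 75 to 107 normalised reads, which is small beside PSMD7 and PSMD12.

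**Figure D2:**
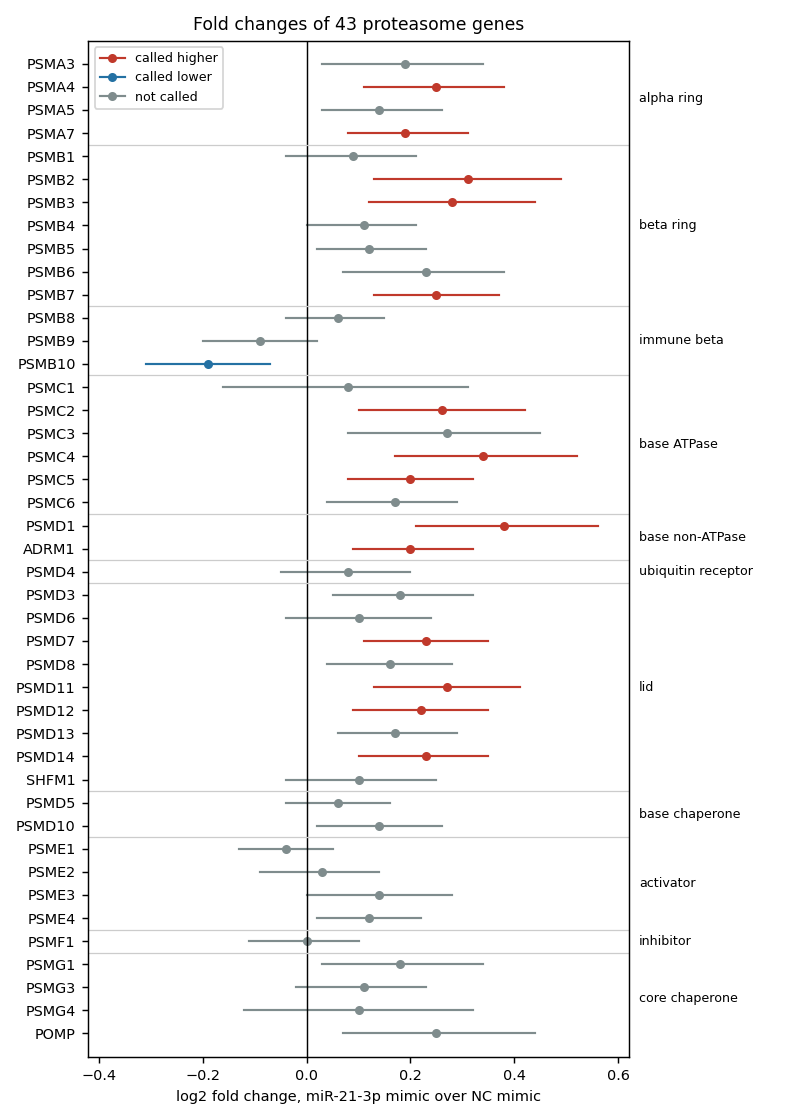
Points are log2 fold changes of miR-21-3p mimic over NC mimic from limma for 43 proteasome genes, with 95% confidence intervals as lines and genes grouped by role; red is called higher, blue called lower and grey not called at an adjusted p of 0.05. Points of the constitutive core, base and lid run from 0.08 to 0.38, and PSMB10 at -0.19 is the 1 call below 0.

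To show the regulatory sequence of members that moved together, the 4 members called higher with the smallest p-values and a single RefSeq promoter window are printed, with PSMB10, the member called lower. A window covers 250 bases before and 50 from the transcript start; 37 of 43 members had 46 windows in the table. They lie on GRCh38.p14 at chr2:231056617-231056916 (PSMD1, + strand), chr19:39970915-39971214 (PSMC4, + strand), chr17:32444260-32444559 (PSMD11, + strand), chr16:74296564-74296863 (PSMD7, + strand) and chr16:67936801-67937100 (PSMB10, - strand). Each is written 5′ to 3′ along its gene, with matches on either strand in capitals for CCAAT (the NF-Y box), TGACNNNGC (the antioxidant response core, read by NFE2L1 and NFE2L2) and GAAANNGAA (part of the interferon response element).
PSMD1: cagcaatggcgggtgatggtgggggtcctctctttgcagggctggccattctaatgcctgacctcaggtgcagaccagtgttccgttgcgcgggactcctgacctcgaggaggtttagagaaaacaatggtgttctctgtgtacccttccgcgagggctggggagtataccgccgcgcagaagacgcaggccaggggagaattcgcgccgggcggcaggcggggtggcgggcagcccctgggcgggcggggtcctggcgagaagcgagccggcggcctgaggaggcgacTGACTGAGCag
PSMC4: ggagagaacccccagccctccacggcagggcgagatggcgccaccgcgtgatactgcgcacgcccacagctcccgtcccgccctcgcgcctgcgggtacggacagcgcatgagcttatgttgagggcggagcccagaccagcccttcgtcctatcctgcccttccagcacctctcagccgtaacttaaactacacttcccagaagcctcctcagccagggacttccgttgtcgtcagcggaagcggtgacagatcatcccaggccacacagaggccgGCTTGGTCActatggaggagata
PSMD11: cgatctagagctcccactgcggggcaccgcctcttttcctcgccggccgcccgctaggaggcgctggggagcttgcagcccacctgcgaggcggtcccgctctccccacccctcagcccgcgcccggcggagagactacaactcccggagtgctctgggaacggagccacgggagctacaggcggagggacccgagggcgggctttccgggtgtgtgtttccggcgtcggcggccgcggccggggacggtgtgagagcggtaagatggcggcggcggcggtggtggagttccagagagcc
PSMD7: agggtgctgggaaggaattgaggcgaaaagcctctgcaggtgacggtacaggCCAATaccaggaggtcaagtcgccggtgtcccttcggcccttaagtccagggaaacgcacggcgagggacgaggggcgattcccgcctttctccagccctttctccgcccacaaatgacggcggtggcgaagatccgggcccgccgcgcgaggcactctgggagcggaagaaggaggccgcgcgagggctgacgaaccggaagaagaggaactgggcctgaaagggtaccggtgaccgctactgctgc
PSMB10: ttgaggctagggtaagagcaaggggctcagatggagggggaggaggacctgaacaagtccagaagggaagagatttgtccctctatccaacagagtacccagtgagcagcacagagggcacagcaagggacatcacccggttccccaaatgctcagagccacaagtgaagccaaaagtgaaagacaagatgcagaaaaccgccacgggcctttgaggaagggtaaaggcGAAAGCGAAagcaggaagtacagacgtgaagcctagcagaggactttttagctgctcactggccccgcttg

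Among these windows, TGACNNNGC matched in PSMD1 and PSMC4 after the transcript start, from positions 40 and 28 counted from it. CCAAT matched in PSMD7 from position -198, GAAANNGAA in PSMB10 from position -21, and PSMD11 held none of the 3. Over the 31 windows of 24 constitutive core, base and lid genes, CCAAT was found in 54.8% and TGACNNNGC in 32.3%. Over all 34961 windows the shares were 34.6% and 13.4%. GAAANNGAA was found in 9.68% of those 31 windows against 8.11% of all windows, and in 4 of the 6 windows of PSMB8, PSMB9, PSMB10, PSME1 and PSME2. The same 6 windows held TGACNNNGC in 3 (50%) and CCAAT in 1. CCGGAAG, an ETS factor core not marked in the printed windows, was found in 29% of the 31 windows against 10.3% of all windows. It was in 0 of the 6. The 15 windows of the other members held CCAAT in 26.7%, TGACNNNGC in 40%, GAAANNGAA in 40% and CCGGAAG in 26.7%, a share above that of the constitutive genes for TGACNNNGC and close to it for CCGGAAG. The 16 windows of members called higher, which are among the 31, held CCAAT in 56.2%, TGACNNNGC in 50%, GAAANNGAA in 12.5% and CCGGAAG in 25%. These 16 windows belong to 12 genes, of which 8 had CCAAT and 7 had TGACNNNGC. The overlapping windows of ADRM1 hold the same CCAAT and TGACNNNGC sites, which are counted in both. No member window had 2 of these 4 motifs overlapping. A match describes letters in a window and is no evidence of binding, and these counts include several windows for a gene with several starts.

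The base chaperones and core chaperones, which guide assembly and are not part of the finished particle, gave no call (limma), although both role sums separated: 4370, 4800 and 4600 against 4860, 4820 and 4940 for the base chaperones and 2651, 2784 and 2464 against 3011, 2807 and 2947 for the core chaperones. With 6.15% of all genes tested called higher, no call among 6 is no result about them. Of the 6, 3 (POMP, PSMG1 and PSMD10) were higher at an unadjusted p under 0.05, as were 15.3% of all genes tested. PSMD10 and PSMD5, which hold base ATPases during assembly, had log2 fold changes of 0.14 and 0.06 (limma adjusted p = 0.12 and 0.44). PSMD9 and PSMG2 were not analysed here. POMP, which brings the parts of the core together, was at 402, 485 and 421 in NC mimic and 539, 481 and 536 in miR-21-3p mimic libraries. NC mimic replicate 2 lay just above miR-21-3p mimic replicate 2, and the log2 fold change of 0.25 (95% CI 0.07 to 0.44) did not pass (limma adjusted p = 0.075). PSMG1, which helps build the alpha ring, was at 705, 766 and 646 against 816, 765 and 817 (log2 fold change 0.18, limma adjusted p = 0.11). PSMG3 and PSMG4, the other chaperone pair of the alpha ring, had log2 fold changes of 0.11 and 0.10 (limma adjusted p = 0.23 and 0.55). POMP, PSMG1 and PSMD10 passed the test when NC mimic replicate 2 was left out, a setting in which the genes called higher over the whole table also rose from 909 to 1628 (limma).

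PSMG3-AS1, a transcript whose name places it antisense to PSMG3, was listed at 465, 471 and 467 against 390, 366 and 344 and was called lower (log2 fold change -0.35, limma adjusted p = 0.015). It was singled out after its values were seen, and the call was lost without NC mimic replicate 3 and without miR-21-3p mimic replicate 3 (limma adjusted p = 0.07 and 0.065). The other antisense row, PSMD6-AS2, was at 184, 138 and 145 against 139, 136 and 118, with overlapping groups, and was not called (log2 fold change -0.24, limma adjusted p = 0.25). Whether the counting used strand is not given in the sources used here, so reads of PSMG3 or PSMD6 and their antisense partners cannot be told apart.

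None of the 4 activators was called (limma), which is no result about them, since 6.15% of all genes tested were called higher. Of the 4, 2 (PSME3 and PSME4) were higher at an unadjusted p under 0.05, as were 15.3% of all genes tested. PSME1 and PSME2 form the interferon-inducible PA28 ring that opens the core without ATP. PSME1 was at 4870, 4860 and 4780 in NC mimic and 4600, 4750 and 4750 in miR-21-3p mimic libraries, and PSME2 at 1190, 1290 and 1290 against 1270, 1260 and 1310. Their log2 fold changes were -0.04 (95% CI -0.13 to 0.05) and 0.03 (95% CI -0.09 to 0.14). A copy of PSME2, PSME2P2, was listed at 460 to 608, and the sum of both had a ratio of means of 1.038. PSME3, the nuclear activator of the same family, had a log2 fold change of 0.14 (limma adjusted p = 0.17), and PSME4, a large single-chain activator, of 0.12 (limma adjusted p = 0.12). Both passed without NC mimic replicate 2, where calls over the whole table rose as well. PSMF1, which encodes the inhibitor PI31, was at 2140, 2100 and 2030 against 2110, 2000 and 2140, a log2 fold change of 0.00 (95% CI -0.11 to 0.10).

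**Figure D3:**
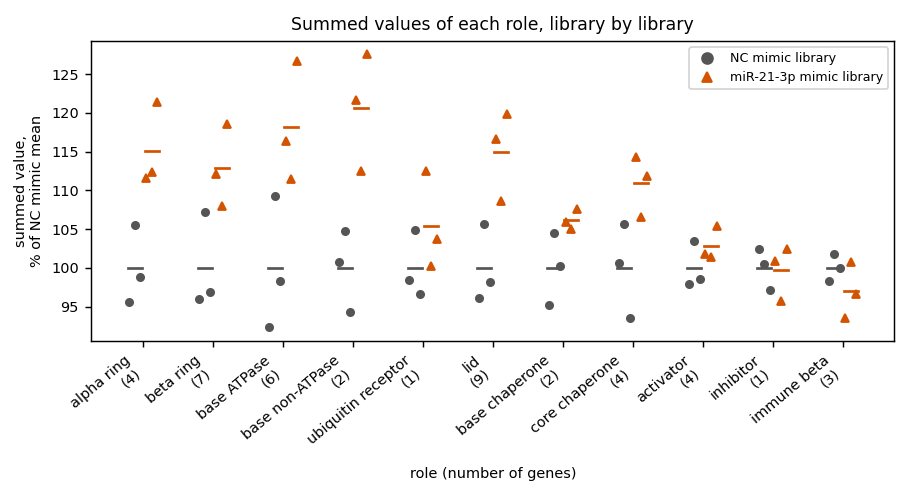
Summed normalised reads of each role in each library, as a percentage of the mean of the 3 NC mimic libraries (vertical axis, not starting at 0); circles are NC mimic and triangles miR-21-3p mimic libraries, and short lines are group means. All triangles lie above all circles for the alpha ring, beta ring, base ATPase, base non-ATPase, lid, base chaperone and core chaperone sums, and the groups overlap for the ubiquitin receptor (PSMD4), activator, inhibitor and immune beta sums.

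Of the 3 immune subunits, 1 was called lower and 2 were not called, beside 4.67% of all genes tested called lower (limma). That is a single gene and no result about the immune subunits as a set. PSMB10, the immune counterpart of PSMB7, was at 1380, 1400 and 1350 in NC mimic and 1140, 1280 and 1200 in miR-21-3p mimic libraries. Every miR-21-3p mimic library was below every NC mimic library, with a log2 fold change of -0.19 (95% CI -0.31 to -0.07, limma adjusted p = 0.046). That call was near the threshold and was lost in 10 of 15 alternative settings, among them each of NC mimic replicates 1, 2 and 3 and miR-21-3p mimic replicates 1 and 3 left out in turn (log2 fold change -0.23 to -0.15 and adjusted p 0.031 to 0.2 over all 15). PSMB9, the counterpart of PSMB6, was at 1820, 1930 and 1940 against 1720, 1870 and 1750 and was not called (log2 fold change -0.09, 95% CI -0.20 to 0.02). PSMB8, the counterpart of PSMB5, was at 2690, 2770 and 2700 against 2750, 2890 and 2840 (log2 fold change 0.06, 95% CI -0.04 to 0.15). In both the groups overlapped.

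The ratio of an immune subunit to the constitutive subunit it replaces was compared within each library. PSMB10/PSMB7 was 0.568, 0.509 and 0.521 in NC mimic and 0.381, 0.43 and 0.369 in miR-21-3p mimic libraries. All 3 miR-21-3p mimic ratios were below all 3 NC mimic ratios, a log2 difference of -0.44, with a two-sided exact permutation p = 0.1, the smallest that 3 against 3 libraries can give. PSMB9/PSMB6 was 0.662, 0.587 and 0.7 against 0.497, 0.59 and 0.478, a log2 difference of -0.32 (exact permutation p = 0.2), with both second replicates close to each other. PSMB8/PSMB5 was 0.865, 0.855 and 0.897 against 0.826, 0.876 and 0.796, a log2 difference of -0.07 (exact permutation p = 0.3). Adjusted over the 3 ratios each p was 0.3, and 3 libraries a group cannot go below 0.1 before adjustment, so none of the 3 could pass a 0.05 threshold.

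**Figure D4:**
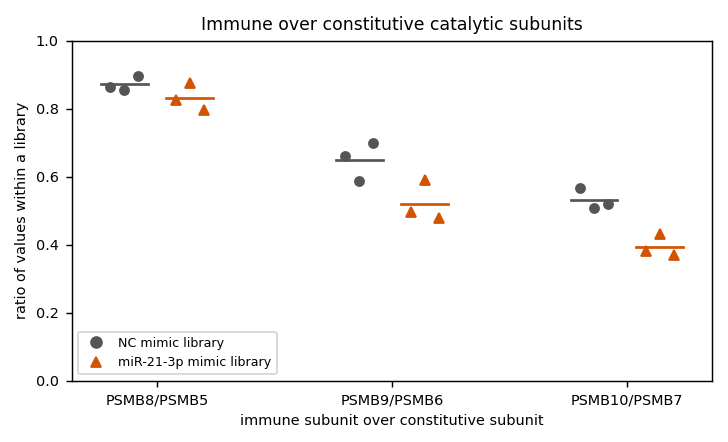
Ratio of normalised reads of each immune subunit to the constitutive subunit it replaces (vertical axis, from 0), 1 point per library; circles are NC mimic, triangles miR-21-3p mimic, and lines are means taken on the log2 scale. The PSMB10/PSMB7 points separate, from 0.509 to 0.568 against 0.369 to 0.43, while the other ratios overlap.

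Levels of different members were compared per kilobase of the median coding transcript length in GENCODE release 29. The release behind the deposited table may differ. In NC mimic cells PSMB4 (5420 ± 246, SD, n = 3), PSMA7 (5180 ± 325) and PSME1 (4750 ± 48.4) were at the top in normalised reads per kilobase, and PSMB4 and PSMA7 did not differ beyond their spread. PSMD7 led the lid at 3810 ± 237, while the lid median was 754 per kilobase. The constitutive beta ring had a median of 2640 per kilobase and the ATPases one of 636. Immune subunit RNA was present in NC mimic cells, each below its constitutive counterpart: PSMB8 at 2420 ± 38.8 against 3100 ± 114 for PSMB5, PSMB9 at 2410 ± 84.6 against 3410 ± 356 for PSMB6, and PSMB10 at 1130 ± 20.7 against 2640 ± 163 for PSMB7. PSMD1, with the largest fold change, was among the less abundant members at 359 ± 33.5 in NC mimic and 468 ± 46.9 in miR-21-3p mimic cells per kilobase. Together the 43 members made up 0.329% of all normalised reads in NC mimic and 0.367% in miR-21-3p mimic libraries.

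Of 29 associated genes of the ubiquitin and proteasome pathway, 2 were called higher and 1 lower (limma), or 6.9% and 3.45% against 6.15% and 4.67% of all genes tested. Their median log2 fold change was 0.07. USP14, a deubiquitinase that docks on the base, was at 1350, 1530 and 1380 in NC mimic and 1660, 1560 and 1780 in miR-21-3p mimic libraries, without overlap (log2 fold change 0.23, 95% CI 0.09 to 0.37, limma adjusted p = 0.038). VCP, the segregase that pulls ubiquitinated proteins from complexes, was at 6580, 7030 and 6740 against 7710, 7500 and 8280, also without overlap (log2 fold change 0.21, 95% CI 0.10 to 0.31, limma adjusted p = 0.022). The share called in this list was near the background, while 8 of the 29 were higher at an unadjusted p under 0.05 (27.6% against 15.3% of all genes tested) and 9 had all miR-21-3p mimic libraries above all NC mimic libraries (31% against 16.5%). Both calls, and that of NFE2L1, were lost when NC mimic replicate 1 or 3 or miR-21-3p mimic replicate 1 or 3 was left out (0 called higher and 0 lower in each case), with 6, 6, 7 and 6 of the list higher at an unadjusted p under 0.05 (20.7%, 20.7%, 24.1% and 20.7%, against 12.2%, 11.1%, 11.5% and 11.1% of all genes tested). Without NC mimic replicate 2, 6 were called higher (20.7%, against 11% of all genes tested).

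NFE2L1 encodes the transcription factor that raises proteasome gene transcription when proteasome activity is short. Its transcript was at 18900, 17900 and 19200 in NC mimic and 16300, 17300 and 16100 in miR-21-3p mimic libraries. No library overlapped the other group, and it was called lower, opposite in direction to the core, base and lid genes (log2 fold change -0.17, 95% CI -0.28 to -0.07, limma adjusted p = 0.04). The activity of this factor depends on processing of its protein, which RNA does not measure.

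In the list of 12 interferon and antigen processing genes, none was called higher and 1 was called lower (limma), or 8.33% called lower against 4.67% of all genes tested, a single gene and no result about the list. At an unadjusted p under 0.05 in either direction there were 5 (41.7%, against 28.5% of all genes tested), and the median log2 fold change was -0.11. The gene called was TAPBP, the tapasin that loads peptides onto class I molecules, at 6520, 6100 and 6200 against 5310, 5900 and 5130 (log2 fold change -0.21, 95% CI -0.32 to -0.09, limma adjusted p = 0.034). Its groups did not overlap. The call was lost in 5 of 15 alternative settings, among them leaving out NC mimic replicate 1 or 3 or miR-21-3p mimic replicate 1 or 3 (limma, edgeR or DESeq2 adjusted p 0.012 to 0.14 over all 15).

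**Figure D5:**
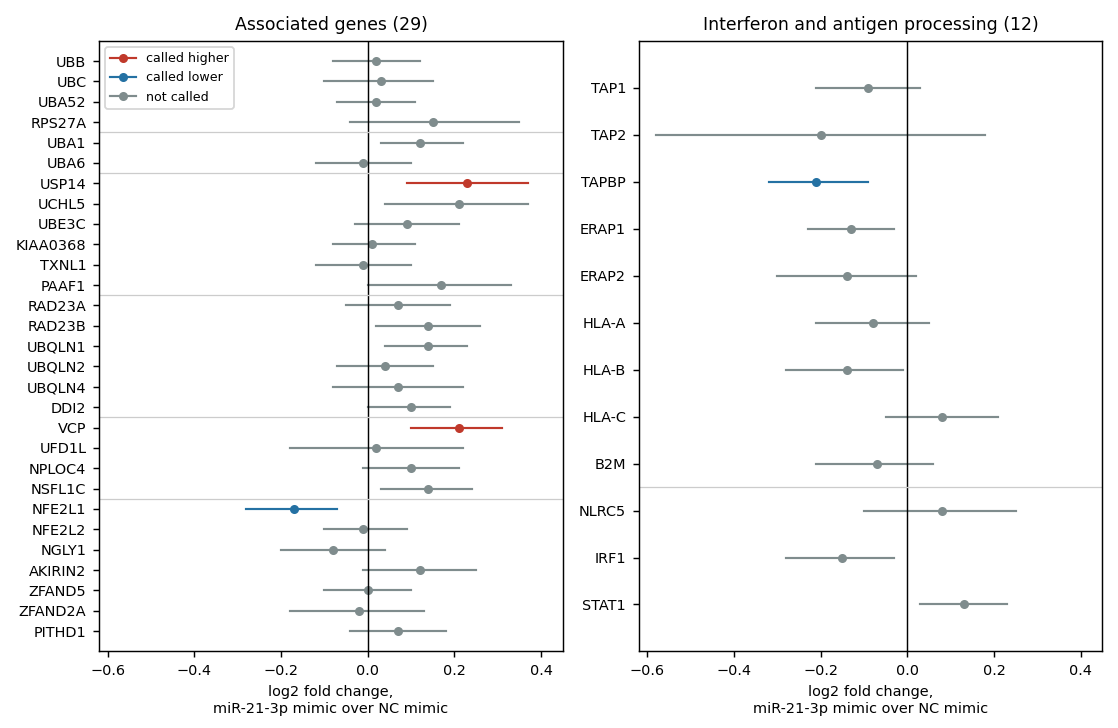
Points are limma log2 fold changes of miR-21-3p mimic over NC mimic with 95% confidence intervals, for 29 associated genes (left) and 12 interferon and antigen processing genes (right); red is called higher, blue called lower and grey not called. USP14 and VCP are the red points at 0.23 and 0.21, and NFE2L1 at -0.17 and TAPBP at -0.21 are the blue ones.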

How the data were processed

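Per the labels, HaCaT cells were transfected with 1 nM miR-21-3p mimic or NC mimic and polyadenylated RNA was sequenced 48 h later (3 libraries each). The submitters' processing notes name bcl2fastq 2.18.12, cutadapt 1.15, TopHat2 2.1.1, featureCounts, Subread 1.5.2 and DESeq2. Genome build and annotation are not given in the sources used here. The values the authors deposited are a normalised signal: reads per gene divided by 1 size factor per library, at 3 significant digits. Low values were whole multiples of 1 step in 100% of cases (tolerance 0.1 of a step), so reads could be recovered, exactly at low values.

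The plan named an edgeR test first and allowed limma for values that are not counts, as here. The main test was limma 3.58.1 in R 4.3.3 (trended prior) on log2(value + 1), for genes with a mean of at least 10. Its p-values were Benjamini-Hochberg adjusted over 14782 genes and called under 0.05. Fold changes are on the log2(value + 1) scale. As an alternative, edgeR 4.0.16 with TMM factors on recovered reads called 881 genes higher and 761 lower. DESeq2 1.42.0, other filters and scalings and leaving out libraries were also tried. Ratios were compared by exact permutation. Within-group library pairs differed by more than counting noise (chi-square per degree of freedom 1.76 to 3.49), so none was treated as 1 library deposited more than once.

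Members and lists were chosen with earlier results of these data known. Named genes were all 43 members, called genes of the other lists, NFE2L1, copy and antisense rows, and markers of the label check. Promoters are from RefSeq (GRCh38.p14) and transcript lengths from GENCODE release 29 (1 of 43 members matched by name). Scripts were tested on simulated data.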

Additional observations from a re-analysis of the deposited data

How the results depend on the processing

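With all 6 libraries kept, 14 to 16 members were called higher in 8 of 9 alternative settings, covering DESeq2, edgeR with 3 kinds of scaling, other low-value filters, a pseudocount of 10 and scaling to library totals. The edgeR fit with TMM factors, the pseudocount of 10 and scaling to library totals were chosen after seeing the data. The median log2 fold change of members was 0.16 to 0.17 in all 9. Members called lower, 1 (PSMB10) with limma, were 0 with DESeq2, with edgeR on library totals alone, without a filter, with scaling to library totals and with the replicate block. Associated genes called lower, 1 (NFE2L1), were 0 without a filter and with the replicate block. None of the 53 genes followed through the settings (members, called genes of the other lists, and the copy and antisense rows) changed direction while called in any setting.

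Genes called higher and lower over the whole table moved most when NC mimic replicate 1, 2 or 3 or miR-21-3p mimic replicate 1 or 3 was left out. They rose without NC mimic replicate 2 and fell without each of the others named. The part of the smaller number of libraries was not tested. Leaving out miR-21-3p mimic replicate 2 gave 899 higher and 640 lower, 16 members higher and 2 associated genes higher, a smaller shift than the replicate block below. With each library left out in turn, genes called higher ran from 98 to 1628 and genes called lower from 81 to 1333, against 909 and 691. Members called higher ran from 0 to 25 and lower from 0 to 1, and associated genes called higher from 0 to 6 and lower from 0 to 1. The median of members ran from 0.14 to 0.20. The log2 differences ran from -0.11 to -0.04 for PSMB8/PSMB5, from -0.41 to -0.26 for PSMB9/PSMB6 and from -0.50 to -0.39 for PSMB10/PSMB7, and adding 5 reads to both genes left them at -0.07, -0.32 and -0.44.

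The replicate numbers gave no sign of pairing the libraries. Deviations of same-numbered libraries from their group means correlated at -0.08, -0.30 and -0.32 over 12173 genes. No library correlated best with its own number. Taking deviations from the mean of only 3 libraries ties these correlations together, so they cannot exclude a weak pairing. Among differently numbered libraries the highest values were 0.23 (NC mimic 1 with miR-21-3p mimic 2), 0.43 (NC mimic 2 with miR-21-3p mimic 3) and 0.27 (NC mimic 3 with miR-21-3p mimic 1). With the number as a replicate block, 685 genes were called higher and 517 lower, 10 members higher and 0 lower, and 1 associated gene higher and 0 lower, with 24 members higher at an unadjusted p under 0.05 (55.8%, against 12.9% of genes tested). Called genes that missed the threshold there were PSMA7, PSMC5, ADRM1, PSMD12, PSMD14, PSMB10, USP14, NFE2L1, TAPBP and PSMC1P1, and PSMC3 passed it. The members' median was 0.17 and the ratio differences were -0.07, -0.32 and -0.44.

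The members' log2 fold changes with all libraries in limma were at most 0.38, and with 3 libraries a group the counts of calls depend on which libraries are included; the cause of the differences between libraries was not tested. RNA levels do not measure proteasome protein or activity. Genes with copies elsewhere, PSMC1 above all, rest on how the authors' counting placed shared reads.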
